A study of Mus musculus with 5 samples.

Results

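A set of 10 genes of the T cell receptor and its costimulatory receptors were examined for RNA Polymerase II occupancy in Th2 cells, *Cd3d*, *Cd3e*, *Cd3g*, *Cd4*, *Lck*, *Zap70*, *Lat*, *Cd28*, *Ctla4* and *Icos*. The genes were chosen by name, and each was accepted only where its line in the gene table lay on the locus of that gene in mm9. All 10 were found among the 11608 genes of the table, and all 10 belonged to the 8551 genes with an enriched interval in at least 1 of the 4 ChIP-Seq libraries. Naïve CD4+ CD62L+ T cells from spleens of young adult C57BL6 mice, either *Parp14*+/+ or *Parp14*-/-, were cultured under Th2 conditions with and without PJ34, an inhibitor of PARP enzymes, and chromatin was precipitated for RNA Polymerase II phosphorylated on serine 2. Each genotype gave an untreated library, named here by the genotype alone, and a treated library, named *Parp14*+/+ + PJ34 or *Parp14*-/- + PJ34, and an Input library came from a mixture of both genotypes. Every culture was activated through plate-bound anti-CD3 and soluble anti-CD28 for 3 days with IL-4 at 10 ng/ml and anti-IFN-g, and then expanded for 4 days in IL-2 and IL-4. The CD3 complex and CD28, products of members of the set, were therefore ligated by antibody in all 4 cultures, and no culture without this stimulus was analysed here. PJ34 was at 10 µM according to the labels, which describe its addition to differentiated cells, whereas the study's methods describe its presence in the culture at another dose. The *Parp14*-/- mice were on the same background, and the number of mice behind each library is not given in the sources used here.

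The T cell receptor recognises peptide on MHC molecules but has no signalling domain of its own, so it depends on the CD3 chains, whose cytoplasmic tails carry tyrosine motifs. The coreceptor CD4 brings the kinase LCK to the receptor, LCK phosphorylates these motifs, ZAP-70 binds to them, and ZAP-70 phosphorylates the adaptor LAT. CD28 and ICOS add costimulatory signals, and CTLA-4 competes with CD28 for the same ligands and restrains the response. The phosphoserine 2 form of the polymerase is the elongating form, which is found along gene bodies and past their 3′ ends.

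Among these genes the polymerase signal was highest at *Ctla4* in every library and lowest at *Cd4* in all but *Parp14*-/- + PJ34, where *Lck* was the lowest. *Ctla4* was 1.42 times as high in *Parp14*+/+ as in *Parp14*-/-, with a counting interval of 1.03 to 1.97. It was the only member whose counting interval excluded a ratio of 1 between the untreated genotypes, against 3.1% of all genes. Between the PJ34-treated genotypes the ratio of *Ctla4* was 1.21, with a counting interval of 0.840 to 1.74. *Icos*, its neighbour, was at 0.741 between the untreated genotypes, with a counting interval that included 1. The CD3 genes, *Cd4*, *Lck* and *Lat* had heights from 4 to 22 fragments, and every ratio of theirs had a counting interval that included 1.

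The values are average peak heights. A peak height is the number of sequenced fragments that overlap at the highest point of an active region, and an active region is a stretch of genome made from enriched intervals that were merged over the libraries of the table, others than those of this series included. The deposited value of a gene is the mean over its active regions. A height is a value at a position and not a total over the gene, although a longer region offers more positions for a maximum. Each condition had 1 library without a replicate, and the conditions were compared by size alone, with no test and no p-value. The 95% intervals are exact and treat the heights summed over a gene's regions as counts, so they cover counting error alone and no difference between cultures. Where the highest library of a gene is set against its lowest, the pair was picked by these same values. Such a ratio is the largest that the gene can give, and its interval does not have 95% coverage. Chromatin of a whole culture was measured, so fewer cells with the polymerase on a gene and less polymerase per cell cannot be told apart.

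*Ctla4* and *Cd3d* are shown by sequence because the intervals treated their promoters differently. Intervals covered the promoter of *Ctla4* in all 4 libraries, whereas the promoter of *Cd3d* was covered in the *Parp14*+/+ library and in none of the other 3. The *Parp14*+/+ interval on *Cd3d* had its summit 8 bp before the 3′ end and not at the promoter. Genome-wide the intervals of *Parp14*+/+ came to 98.1 Mb. Those of *Parp14*+/+ + PJ34, *Parp14*-/- and *Parp14*-/- + PJ34 came to 82.4, 73.8 and 65.5 Mb. The promoter sequences are the 250 bases before the start in RefSeq (GRCm38.p6, plus strand), chr1:60908775-60909024 for *Ctla4* and chr9:44981536-44981785 for *Cd3d*. The capitals in *Cd3d* mark the palindrome TTC and GAA with a spacer of 3 bases, the form of site that STAT6, the transcription factor activated by IL-4, is known to bind. The last sequence is the 201 bases around the *Parp14*+/+ summit of *Ctla4*, the highest point of any member, at chr1:60973436-60973636 of NCBIM37, which is mm9, plus strand, 862 bp past the 3′ end of the gene.
Ctla4 promoter: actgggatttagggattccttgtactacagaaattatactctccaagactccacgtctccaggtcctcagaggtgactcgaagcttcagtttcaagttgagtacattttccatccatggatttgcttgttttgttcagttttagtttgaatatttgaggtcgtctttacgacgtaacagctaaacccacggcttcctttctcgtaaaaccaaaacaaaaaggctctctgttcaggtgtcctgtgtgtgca
Cd3d promoter: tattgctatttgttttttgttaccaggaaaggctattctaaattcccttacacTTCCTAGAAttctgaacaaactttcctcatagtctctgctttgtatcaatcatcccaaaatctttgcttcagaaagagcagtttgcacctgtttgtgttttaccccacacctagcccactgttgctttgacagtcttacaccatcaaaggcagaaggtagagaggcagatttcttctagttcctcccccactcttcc
Ctla4 summit: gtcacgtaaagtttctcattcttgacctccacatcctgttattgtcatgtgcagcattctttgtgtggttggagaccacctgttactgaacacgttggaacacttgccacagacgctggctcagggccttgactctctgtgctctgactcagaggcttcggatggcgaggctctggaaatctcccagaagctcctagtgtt

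Windows from 250 bases before to 50 bases after the start were at hand for 7 of the 10 members, 10 windows in all, and *Cd4*, *Cd28* and *Icos* had no window. Both strands were searched for TTC and GAA with a spacer of 3 or 4 bases, a palindrome that reads the same way on either strand. It was present in 2 windows, that of *Cd3d*, where it begins 197 bases before the start, and that of *Cd3e*, where the form with a spacer of 4 begins 33 bases after it. Of all 32851 windows of this length 8.30% held the spacer of 3, 6.95% the spacer of 4 and 14.6% either. These are matches of letters and not measured sites.

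*Parp14* itself was examined first as a check of the labels. Its height was 8 in *Parp14*+/+, 11 in *Parp14*+/+ + PJ34 and 6.67 in both *Parp14*-/- libraries. Intervals covered 22873 bp and 20837 bp of its 38623 bp in the *Parp14*+/+ libraries, and 2687 bp and 3287 bp in the *Parp14*-/- libraries. The libraries had been reduced to the same number of alignments by the authors, and they held 8841 to 12014 intervals, with the fewest in *Parp14*-/- + PJ34. All 8 Th2 marker genes that were listed had an interval in at least 1 library, with heights summed over the list of 253 to 367. This sum was highest in *Parp14*+/+ and lowest in *Parp14*-/- + PJ34. *Il5* had no interval in either *Parp14*-/- library, at 4 and 6, against 21 in both *Parp14*+/+ libraries. Without and with PJ34, *Il4* stood at 61 and 39 in *Parp14*+/+ cells, against 29 and 18 in *Parp14*-/- cells. *Il13* stood at 38 and 33, against 17 and 10. *Il1rl1* and *Il4ra*, the latter at 110 to 160, were lower in *Parp14*+/+ than *Parp14*-/- cells in both genotype pairs. Of 8 B cell markers *Cd79a* alone had an interval, at 28 to 38, and the summed heights were 58.2 to 68.5, lowest in *Parp14*-/- + PJ34. Of 8 myeloid markers 4 were in the table, and of these *Cd68*, at 52 to 80, and *Csf1r*, at 5.5 to 8.5, had intervals. The summed heights were 67.3 to 91.8, mostly from *Cd68*, with the highest sum in *Parp14*+/+. *Cd8a*, a defining gene of the other T cell lineage, had no interval, *Cd8b1* was not in the table, and *Eomes* had an interval in the *Parp14*-/- libraries alone. Of 5 NK cell markers 2 were in the table, *Nkg7* and *Tyrobp*, and both had intervals, with sums of 26 to 35. Whether the regions of these markers are shared with neighbouring genes was not examined, so their heights need not be those of the marker genes themselves. The part of other cells in the values of the members was not tested.

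The plot of heights by library shows the whole set. *Ctla4* stood above 98.7% of the 8551 genes in *Parp14*-/- + PJ34 and above 99.8% of them in *Parp14*+/+, with the other 2 libraries between. *Icos* and *Zap70* stood above 89.6% to 96.8% of them, and *Cd28* above 80.9% to 89.7%. *Cd3d* stood above 63.6% to 87.6% and *Cd3g*, which shares its region, above 51.1% to 74.3%, whereas *Cd3e* stood above 29.4% to 46.7%. *Cd4* lay above 3.24% of genes in *Parp14*-/- and above 32.9% in *Parp14*-/- + PJ34, so the gene that defines the sorted cells was low among the genes with an interval.

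**Figure D1:**
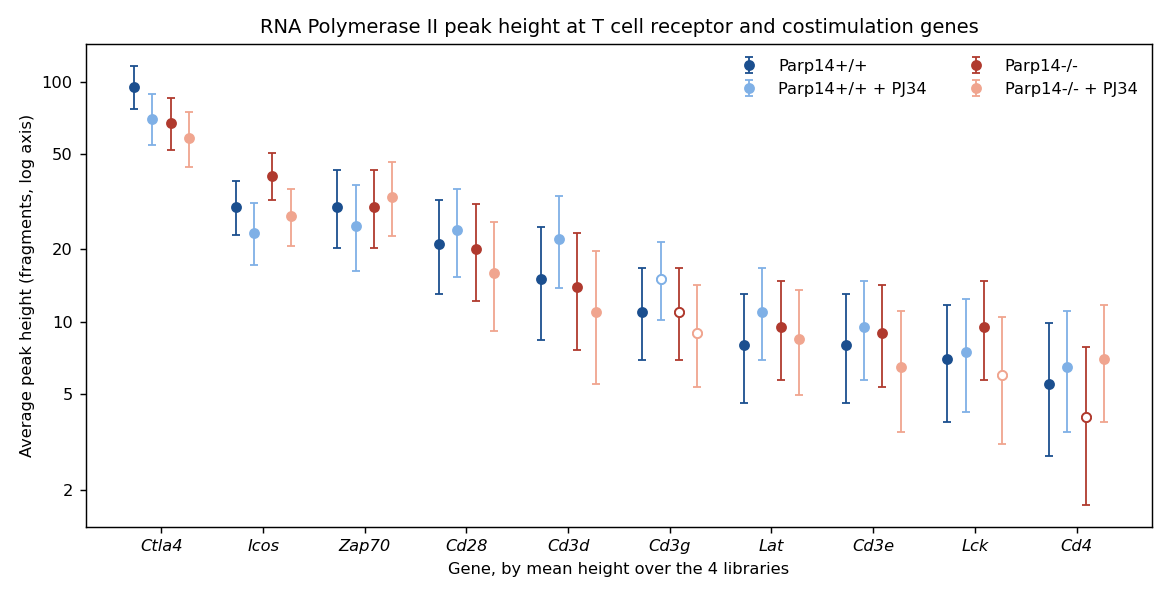
Average peak height (fragments at the highest point, log axis) of each of the 10 genes in the 4 libraries, ordered by the mean height, with 95% exact Poisson intervals as bars, which cover counting error only. Open points mark libraries in which the table lists no interval for that gene. *Ctla4* lies at 58 to 95, apart from the other genes, while *Lat*, *Cd3e*, *Lck* and *Cd4* lie between 4 and 11 with overlapping bars.

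The genes of the CD3 chains lie side by side on chromosome 9. *Cd3g* (chr9:44777771-44788507, minus strand, 10737 bp) and *Cd3d* (chr9:44789964-44794504, plus strand, 4541 bp) start 1457 bp apart and run in opposite directions, and *Cd3e* (chr9:44806826-44817673, minus strand, 10848 bp) ends 12322 bp beyond *Cd3d*. CD3δ and CD3γ each pair with CD3ε in the receptor complex. *Cd3d* had heights of 15 and 22 in *Parp14*+/+ cells without and with PJ34, and 14 and 11 in *Parp14*-/- cells without and with it. The *Parp14*+/+ + PJ34 library was the highest and *Parp14*-/- + PJ34 the lowest, with a ratio of 2.00 between them and a 95% interval of 0.930 to 4.57. The summit lay at the 3′ end in all 4, 8 bp before it in *Parp14*+/+ and 280 to 632 bp past the end that the table gives, where GENCODE annotates the gene for another 631 bp.

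The only interval on *Cd3g* was the one on *Cd3d*. In *Parp14*+/+ a single interval of 10800 bp ran over the whole of *Cd3d* and on into the first 2408 bp of *Cd3g*, which is 22.4% of that gene. In the other 3 libraries the interval began inside *Cd3d*, 2286 to 3336 bp after its start, and *Cd3g* had no interval. The deposited heights of *Cd3g*, 11, 15, 11 and 9 in the order of libraries above, are means of the *Cd3d* region and of a region beyond its 3′ end at *Ube4a*, where the heights worked out from the means were 7 or 8. No height of *Cd3g* itself could therefore be read from the table, and its ratios repeat those of *Cd3d* in damped form.

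*Cd3e* had heights of 8 and 9.5 in *Parp14*+/+ cells without and with PJ34, and 9 and 6.5 in *Parp14*-/- cells without and with it. The spread was small, but the intervals lay in different places. They covered 53.7% of the gene in *Parp14*+/+, 41.2% after PJ34 in these cells and 44.0% in *Parp14*-/- + PJ34, each in its later part and past its 3′ end. In *Parp14*-/- the single interval was 900 bp long, reached from 376 bp before to 523 bp after the start, had its summit of 11 at 183 bp before the start and covered 4.83% of the gene. At the start the heights worked out from the means were 7, 9 and 4 in the other 3 libraries, in the order given. Toward the 3′ end the *Parp14*-/- library had a height of 7, with no interval, against 9 to 10 in the others.

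*Cd4* (chr6:124814711-124838227, minus strand, 23517 bp) encodes the coreceptor for MHC class II and defines the T helper lineage. Its heights were 5.5 and 6.5 in *Parp14*+/+ cells without and with PJ34, and 4 and 7 in *Parp14*-/- cells without and with it. *Parp14*-/- was the lowest library and had no interval on the gene, and the *Parp14*-/- + PJ34 library was the highest. Intervals covered 6.33%, 10.8% and 7.61% of the gene in the 3 libraries that had them. They lay at the 3′ end, in a region shared with the neighbouring gene *Gpr162*, and in the 2 PJ34-treated libraries also in the middle of the gene, at summits of 6 and 5. The 95% interval of the highest to the lowest library was 0.685 to 4.81 around a ratio of 1.75.

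Of the proximal signalling genes, *Lck* (chr4:129225602-129235616, minus strand, 10015 bp) encodes the Src family kinase that phosphorylates the CD3 tails. It had heights of 7 and 7.5 in *Parp14*+/+ cells without and with PJ34, and 9.5 and 6 in *Parp14*-/- cells without and with it. Each of these is a mean of a region on *Lck* and of a region on the neighbouring gene *Hdac1*. The region on *Lck* was at 10 in the first 3 libraries, so the higher mean of *Parp14*-/- came from the *Hdac1* region, at 4, 5 and 9. Intervals covered 91.0%, 86.5% and 94.0% of *Lck* in these libraries, while *Parp14*-/- + PJ34 had no interval on the gene.

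*Zap70* (chr1:36818706-36839661, plus strand, 20956 bp), which encodes the kinase that binds phosphorylated CD3 tails, had heights of 30 and 25 in *Parp14*+/+ cells without and with PJ34, and 30 and 33 in *Parp14*-/- cells without and with it. The untreated libraries were equal and the PJ34-treated libraries lay on either side of them. The highest and the lowest library differed by a ratio of 1.32, with a 95% interval of 0.761 to 2.32. A single interval of 38550 to 43200 bp covered the whole gene in each library and ran 15788 to 20288 bp past its end into *Tmem131*. Its summit lay within *Zap70*, 7054 and 7086 bp after the start, in *Parp14*+/+ and *Parp14*-/- + PJ34. In the other 2 libraries it lay 2227 and 4147 bp past the end, so the height there is not a height within *Zap70*. The region is also assigned in the table to *Tmem131* and *4933424G06Rik*.

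*Lat* (chr7:133507341-133513048, minus strand, 5708 bp), the adaptor gene, had heights of 8 and 11 in *Parp14*+/+ cells without and with PJ34, and 9.5 and 8.5 in *Parp14*-/- cells without and with it. Its 2 regions are shared with *Spns1*. In *Parp14*+/+ intervals covered 86.9% of *Lat*, including its start, and in the other libraries 29.1%, 36.9% and 52.7%, without the start. The library with the longest covered length was thus the one with the lowest height.

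The 3 genes of the CD28 family lie in a row on chromosome 1 and on the same strand, *Cd28* (chr1:60803310-60830203, 26894 bp), *Ctla4* (chr1:60965869-60972674, 6806 bp) and *Icos* (chr1:61034767-61055963, 21197 bp), with 135666 bp between the first 2 and 62093 bp between the last 2. No interval joined any of them, so their heights came from separate regions. *Cd28* had heights of 21 and 24 in *Parp14*+/+ cells without and with PJ34, and 20 and 16 in *Parp14*-/- cells without and with it. The order was that of *Cd3d*, with the PJ34-treated *Parp14*+/+ library highest and the PJ34-treated *Parp14*-/- library lowest, at a ratio of 1.5 with an interval of 0.764 to 3.02. A single interval of 33750 to 36600 bp covered all of *Cd28* in 3 libraries and ran past its end, and in *Parp14*-/- 2 intervals covered 94.1%.

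*Ctla4* had heights of 95 and 70 in *Parp14*+/+ cells without and with PJ34, and 67 and 58 in *Parp14*-/- cells without and with it. The untreated *Parp14*+/+ library was the highest, with a counting interval of 76.9 to 116 that overlapped those of the next 2, 54.6 to 88.4 and 51.9 to 85.1, and not that of *Parp14*-/- + PJ34, 44.0 to 75.0. Between the highest and the lowest library the ratio was 1.64, with an interval of 1.17 to 2.31. This pair was picked by its values, so that its interval lies above 1 is no evidence of a difference. In each library a single interval covered the whole gene, 14250 to 15750 bp long, from 919 to 2419 bp before the start to at least 6075 bp past the end. The summit lay past the 3′ end in all 4 libraries, at 862, 1726, 1214 and 1182 bp beyond it, and the first of these is the sequence printed above, with a GC content of 50.7%. The covered length of the gene did not separate the libraries, since it was 100% in all 4.

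*Icos* had heights of 30 and 23.5 in *Parp14*+/+ cells without and with PJ34, and 40.5 and 27.5 in *Parp14*-/- cells without and with it. The order differed from that of *Ctla4*, with *Parp14*-/- highest and both PJ34-treated libraries lowest. The ratio of the highest to the lowest library was 1.72, with an interval of 1.19 to 2.52, again for a pair picked by its values. *Icos* had 2 regions, both highest in *Parp14*-/- and lowest in *Parp14*+/+ + PJ34. At the region of the start the heights were 31, 19, 35 and 22, and at the region of the end they were 29, 28, 46 and 33. The start summit lay within 47 bp of the gene start in 3 libraries and 1457 bp after it in *Parp14*+/+ + PJ34. The end summit lay 1237 to 3077 bp past the end in the table, or past an end 1201 bp further on in GENCODE. Intervals covered 95.05% to 97.2% of the gene in all 4 libraries.

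**Figure D2:**
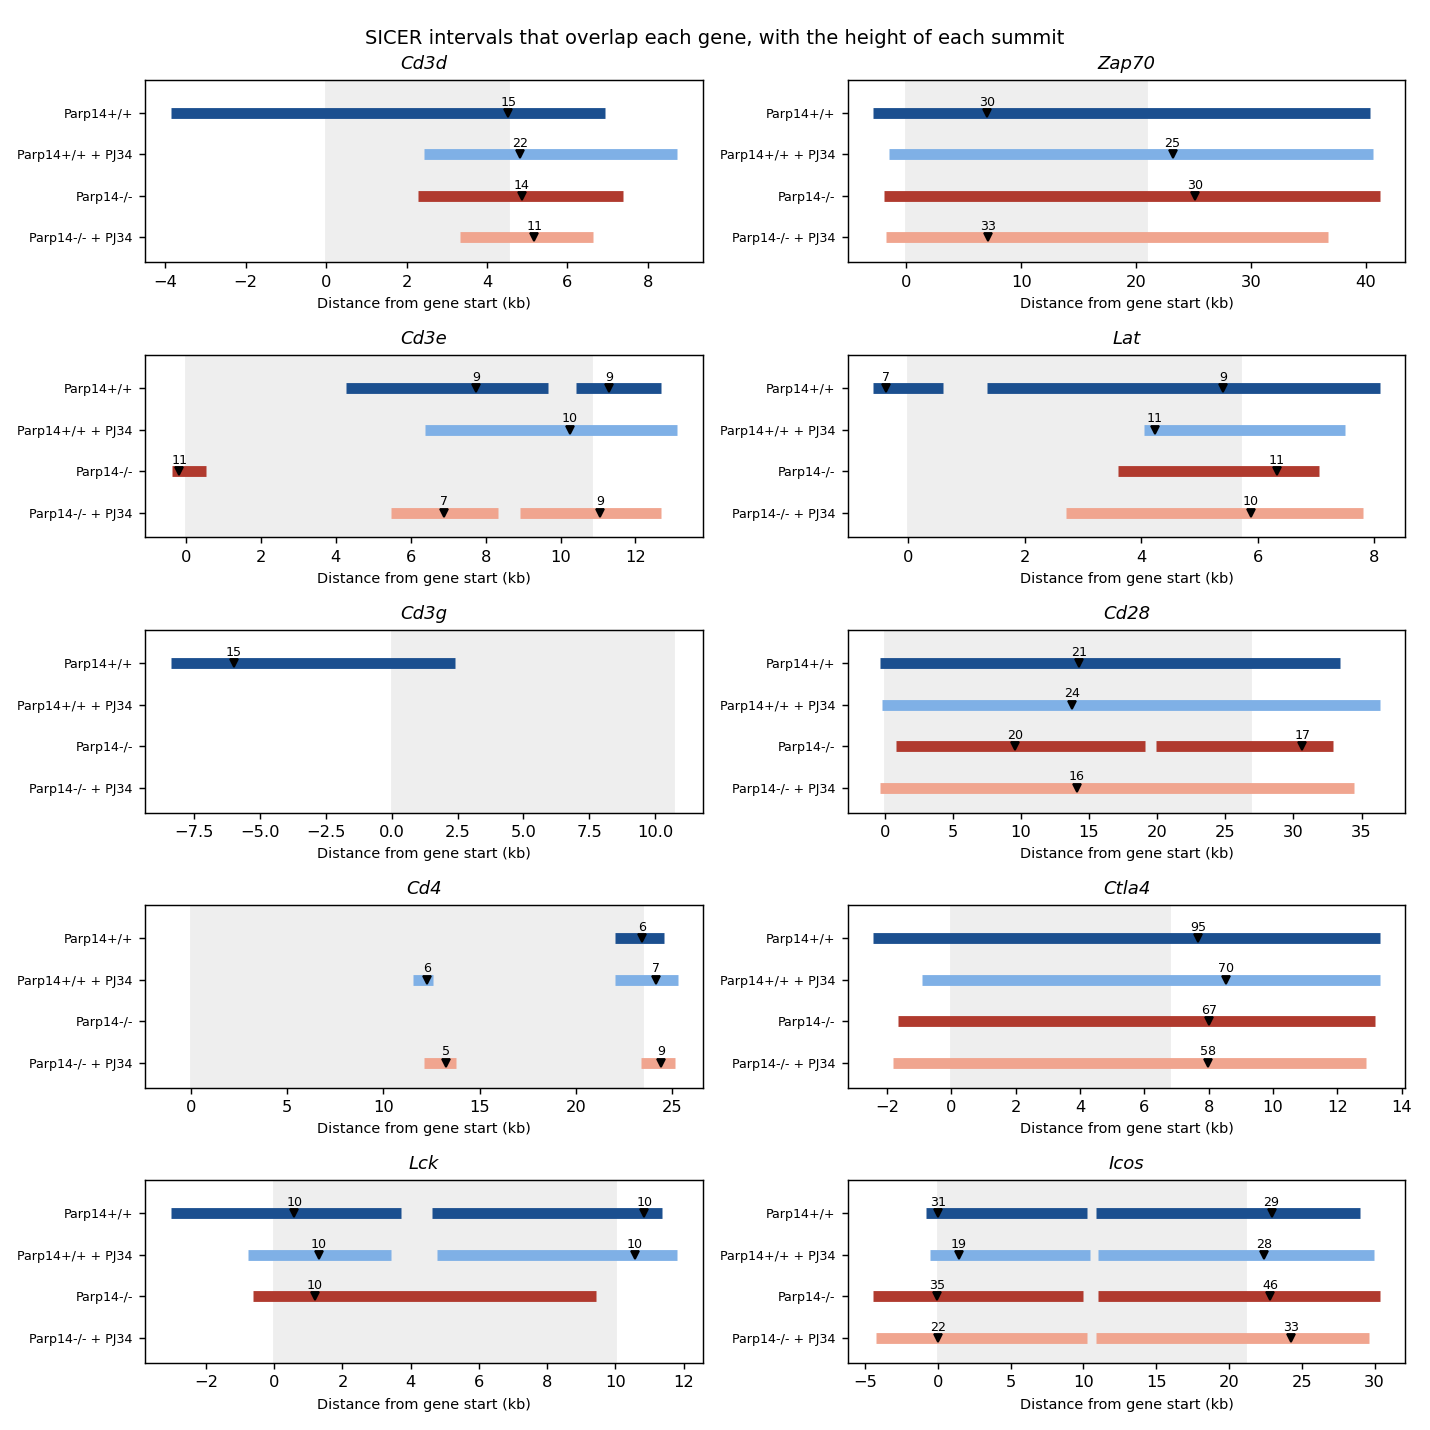
Enriched intervals that overlap each of the 10 genes in the 4 libraries, drawn as bars against the distance from the gene start in kb, with the gene body in grey. Triangles mark the summit of each interval and the number above it is the height there. *Ctla4* has its summit past the gene end in every library, *Cd3g* has an interval in *Parp14*+/+ alone, and *Lck* has none in *Parp14*-/- + PJ34.

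The first comparison asked which genes depend on PARP-14 in the absence of the inhibitor. Ratios were *Parp14*+/+ divided by *Parp14*-/-, and a gene was called with a ratio above 1.4 or below 0.7 and an interval in the higher library. Of the 10 members 1 was called, *Ctla4*, higher in *Parp14*+/+ at 1.42 with an interval of 1.03 to 1.97, where 20% of the 8551 genes were called, 11% higher and 8.99% lower. The interval excluded 1 for *Ctla4* alone, and for 3.1% of all genes. *Icos* was at 0.741 (0.521 to 1.05), *Lck* at 0.737 (0.342 to 1.55) and *Cd4* at 1.38 (0.504 to 3.94). The value of *Lck* came from its *Hdac1* region, since the region on *Lck* was at 10 in both of these libraries. The other 6 members lay between 0.842 and 1.07. The median over the members was 1, equal to the median over all genes, with 4 members above 1, 4 below and 2 equal to it.

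The same comparison in the presence of PJ34 gave 3 called members, all higher in *Parp14*+/+ + PJ34, where 24.3% of all genes were called, 19.8% in this direction and 4.58% in the other. They were *Cd3d* at 2.00 (0.930 to 4.57), *Cd28* at 1.5 (0.764 to 3.02) and *Cd3e* at 1.46 (0.685 to 3.22). No member had an interval that excluded 1, against 3.48% of all genes. *Ctla4* was at 1.21 (0.840 to 1.74), *Icos* at 0.855 (0.566 to 1.28) and *Zap70* at 0.758 (0.432 to 1.31). Over all genes the median ratio was 1.14, a shift of 0.19 on the log2 scale, and over the members it was 1.27, with 7 above 1 and 3 below. Relative to the median of all genes *Cd3d* was at 1.75 and *Zap70* at 0.663, while *Cd28*, at 1.31, and *Cd3e*, at 1.28, fell under the threshold.

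Within *Parp14*+/+ cells the ratio of untreated to PJ34-treated called 1 member, *Cd3d*, lower without the inhibitor at 0.682 (0.329 to 1.38), where 15.4% of all genes were called, 6.23% higher and 9.22% lower. *Ctla4* was at 1.36 (0.986 to 1.88), *Icos* at 1.28 (0.857 to 1.91) and *Zap70* at 1.2 (0.682 to 2.13), all 3 higher without the inhibitor, and the other 6 lay between 0.727 and 0.933. The member median was 0.861 against 0.958 for all genes, and no interval of a member excluded 1, against 1.61% of all genes. Once the libraries were scaled to equal medians, *Ctla4* was called in place of *Cd3d*.

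Within *Parp14*-/- cells 3 members were called, 2 higher and 1 lower, where 15.4% of all genes were called, 11.3% higher and 4.02% lower. *Icos* was higher without the inhibitor at 1.47 (1.03 to 2.11), as was *Lck* at 1.58 (0.730 to 3.58), and *Cd4* was lower at 0.571 (0.208 to 1.46). *Icos* was the only member whose interval excluded 1, against 1.66% of all genes, and relative to the median of all genes it was at 1.36, under the threshold. The value of *Lck* includes its *Hdac1* region, and the value of *Cd4* sets an untreated library with no interval against a treated one with 2. Of the members 8 lay above 1 and 2 below, with a median of 1.24 against 1.08 for all genes, whose shift was 0.12 on the log2 scale. The 4 ratios of a gene come from the same 4 libraries, so each library enters 2 of them.

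**Figure D3:**
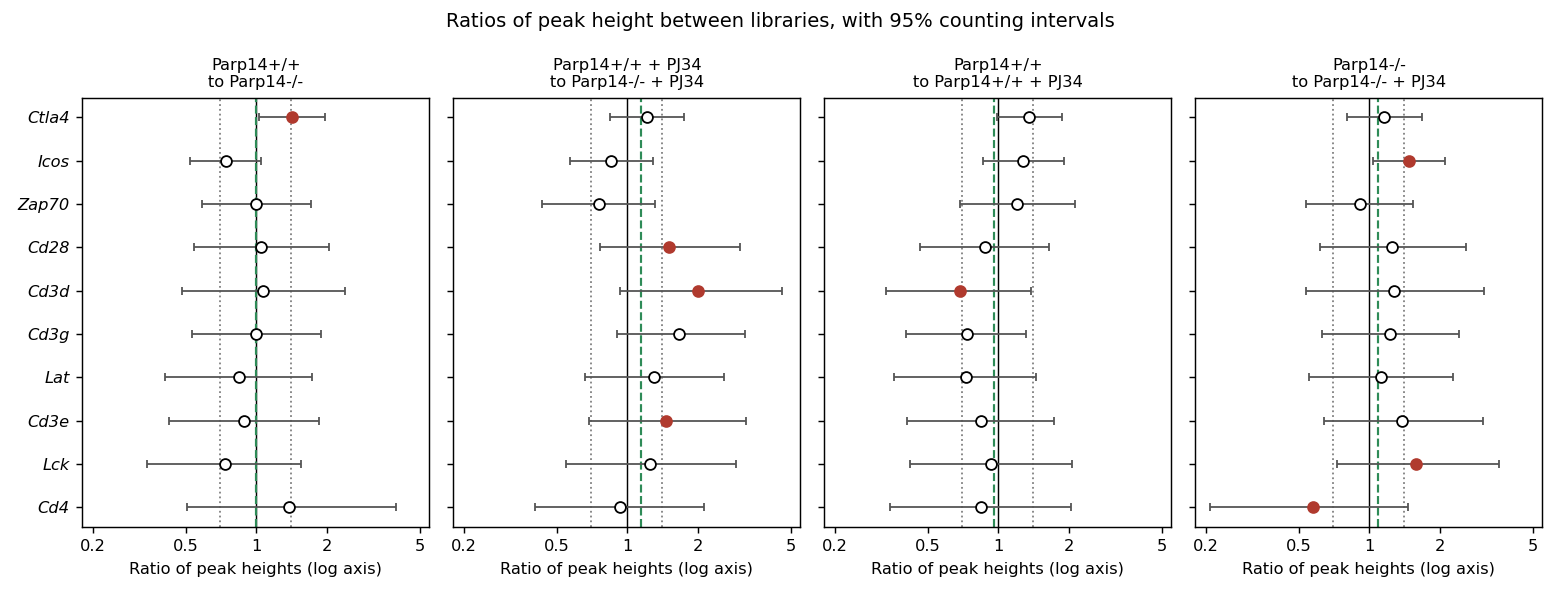
Ratio of peak heights (first library divided by the second, log axis) of each gene in the 4 comparisons, with 95% counting intervals as bars. Filled points are called genes, dotted lines mark ratios of 0.7 and 1.4, the solid line marks 1 and the dashed line the median of all 8551 genes. Bars of *Ctla4* in the untreated genotype pair and of *Icos* in the *Parp14*-/- pair lie wholly above 1, and all others reach or cross it.

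The length of gene covered by intervals is a readout of the same libraries that does not use the height. Between the untreated genotypes 7 members had more bases covered in *Parp14*+/+, 1 had fewer, *Lck*, and *Ctla4* and *Zap70* were covered whole in both, where 63.2% of all genes with an interval had more in *Parp14*+/+. Between the PJ34-treated genotypes 3 were longer in *Parp14*+/+ + PJ34, 2 were shorter and 5 were equal, against 58.9% longer over all genes. In *Parp14*+/+ cells 5 were longer without the inhibitor, 1 was shorter and 4 were equal, against 54.6%. In *Parp14*-/- cells 2 were longer without the inhibitor, 5 were shorter and 3 were equal, against 49.5%. *Cd3g* had no interval in either library of the PJ34-treated pair or of the *Parp14*-/- pair and is among the equal there. The shares over all genes leave such genes out. In the untreated genotype pair and in *Parp14*+/+ cells *Cd3d* and *Cd3g* were longer through the same interval. Height and length did not always go the same way. *Cd3d* was 46.4% covered in *Parp14*+/+ + PJ34, where it was highest, and 100% covered in *Parp14*+/+.

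The place of the highest summit was past the 3′ end in 3 of the 10 members with an interval in *Parp14*+/+, in 6 of 9 in *Parp14*+/+ + PJ34, 5 of 8 in *Parp14*-/- and 6 of 8 in *Parp14*-/- + PJ34, by the ends in the table. *Lck* in both *Parp14*+/+ libraries and *Cd3e* in the untreated one had an equally high summit inside the gene and were counted as past the end. Over all genes with an interval this share was 39.3%, 33.9%, 31.2% and 31.4%. *Ctla4* alone had its summit past the end in all 4 libraries, and for *Cd28* the highest summit lay inside the gene in all 4. For *Zap70* and *Cd4* the region past the end also holds another gene.

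The other genes of the pathway were taken from a list of 83, of which 80 were in the table and 72 had an interval. Between the untreated genotypes 2 were called higher in *Parp14*+/+ and 9 lower, 15.3% of the 72 against the 20% of all genes, with a median ratio of 0.942. Between the PJ34-treated genotypes 13 were higher and 5 lower, 25% of the 72 against 24.3% of all genes, of which 19.8% were higher and 4.58% lower, and this split became 6 higher and 11 lower after that scaling. In *Parp14*+/+ cells 5 were higher without the inhibitor and 5 lower, 13.9% against 15.4% of all genes, or 6 and 4 after scaling. The 5 higher include *Tnfrsf4* and *Tnfrsf18*, named after their values were seen, which have the same heights in every library and are not separate observations. In *Parp14*-/- cells 15 were higher without it and 2 lower, 23.6% against 15.4% of all genes, of which 11.3% were higher and 4.02% lower, or 11 and 3 after scaling, with a median of 1.203 against the 1.08 of all genes. The direction of the list thus turned with the scaling between the PJ34-treated genotypes and stayed in *Parp14*-/- cells. In the latter all genes leaned the same way before scaling. The split of all genes after scaling is not given here, so the scaled counts of the list have no background beside them.

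By role, the receptor chains and coreceptors other than the members had no call between the untreated genotypes among 7 genes with an interval, the proximal kinases and adaptors had 1 lower of 16, and the downstream signalling genes had 3 lower of 18. The negative regulators had 1 higher and 1 lower of 15. The other costimulatory and coinhibitory receptors had 1 higher and 4 lower of 16, which is 31.3% of them, while the shares called in the roles before were 0%, 6.25%, 16.7% and 13.3% and the share over all genes was 20%. The highest gene of the roles, apart from the proximal kinases and adaptors, was *Cd2*, an adhesion receptor, at 36, 61, 41 and 36 in the order of libraries above, *Malt1*, a paracaspase of the NF-κB route, at 60, 50, 56 and 49, *Sla*, an adaptor that dampens receptor signalling, at 83, 76, 82 and 56, and *Il2ra*, the IL-2 receptor α chain, at 112, 138, 145 and 112. *Cd2* was highest in *Parp14*+/+ + PJ34, whereas *Sla* was lowest in *Parp14*-/- + PJ34.

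Of the list 3 genes were called in the same direction in both genotype pairs, all of them receptors. *Cd69*, an early activation antigen, was at 29 and 41 in *Parp14*+/+ cells without and with PJ34, and 88 and 86 in *Parp14*-/- cells without and with it. Both *Parp14*-/- libraries lay above both *Parp14*+/+ libraries, with ratios of 0.330 (0.209 to 0.506) without and 0.477 (0.320 to 0.699) with PJ34. *Havcr2*, which encodes the inhibitory receptor TIM-3, was at 13, 14, 21 and 24, with ratios of 0.619 (0.285 to 1.30) and 0.583 (0.279 to 1.17). *Btla*, a coinhibitory receptor, was at 10.5, 8.25, 7 and 4, with ratios of 1.5 (0.908 to 2.51) and 2.06 (1.103 to 4.01). None of the 10 members was called in both pairs. Of all genes 20% were called in the untreated pair and 24.3% in the PJ34-treated pair. The share of all genes called in both pairs was not counted, so these counts have no background beside them.

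**Figure D4:**
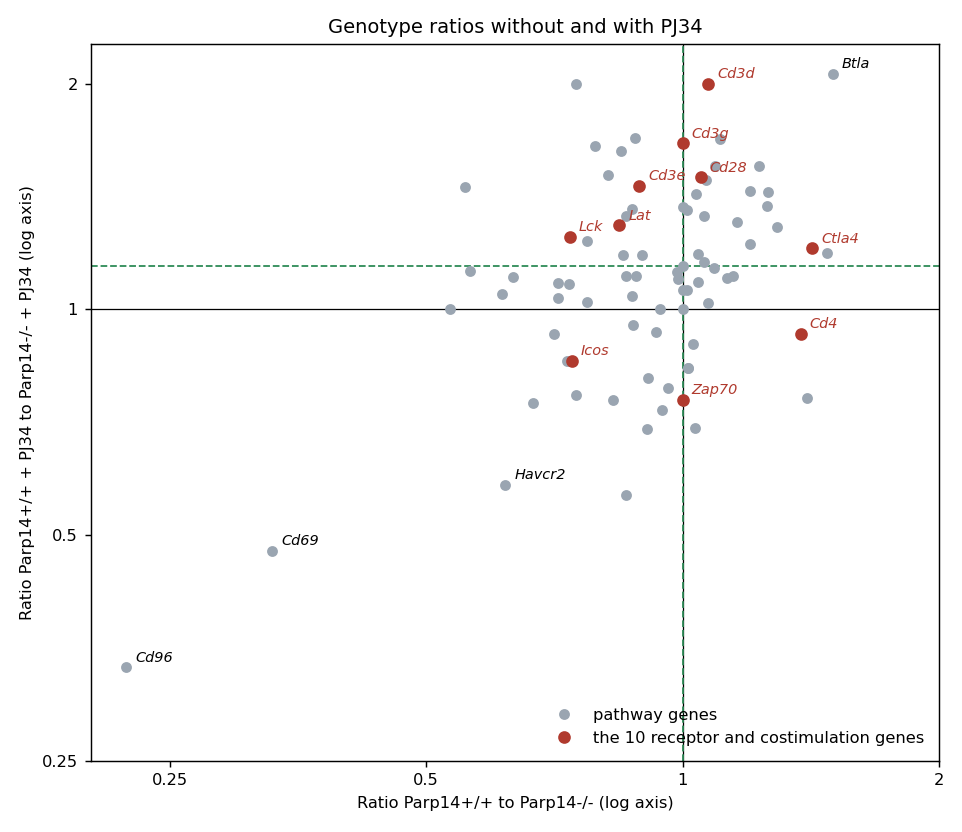
Ratio of peak heights between genotypes without PJ34 (horizontal, log axis) and with PJ34 (vertical, log axis) for the 10 genes (red) and the 72 other pathway genes with an interval (grey), with dashed lines at the medians of all genes, 1 and 1.14. The 2 axes share no library. *Cd69* and *Havcr2* lie low on both axes and *Btla* high on both, while the 10 genes lie between 0.737 and 1.42 on the horizontal axis. *Cd96*, the lowest point, was labelled after its values were seen and had a height of 2 in both *Parp14*+/+ libraries.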

How the data were processed

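RNA Polymerase II ChIP-Seq of Th2 cells was analysed in 4 conditions with 1 library each. By the authors, reads were aligned to mm9 (ELAND), duplicates were discarded, libraries were brought to an equal number of alignments, and intervals were called with SICER against Input. They deposited the interval tracks with the height of each summit, and a gene table whose signal is the average peak height per gene. Each active region was found to be assigned to genes from 2500 bp upstream to 5000 bp downstream, which gave the region number of 99.97% of genes. The summit heights of the tracks gave the deposited average within 0.05 for 94.6% of 2170 pairs of gene and library. The table holds 8 columns of libraries not analysed here, which were not used, and no Input value per gene was used.

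Labels are shifted in lines with no interval in either *Parp14*+/+ library, so lines were named by transcript accession (RefSeq, names only). A name was kept where the gene of that name in GENCODE vM1 (NCBIM37) on the same strand covered at least 80% of the line. Of 3637 such lines 2661 were named otherwise than labelled, and of all 11608 lines 3990 were. Labels of another gene and other symbols of the same gene were not counted apart. Ratios carry exact binomial (Clopper-Pearson) 95% intervals and heights exact Poisson intervals. The ratio intervals alone were tested, on simulated Poisson counts and not on heights taken at the highest point of a region. Calls used ratios of 1.4 and 0.7 in all 4 comparisons. The study set these for genotype, adding genes of high signal at 1.2 and 0.83, and used 0.83 and 1.2 as the limits for PJ34. It applied them to average values of genes on another scale than the peak heights used here. The calls here are therefore not those of the study. The text names all members, *Parp14*, genes that share a region with a member, and of the pathway list the genes called in both genotype pairs in the same direction and the highest gene of each role. The result of 1 of these genes is not reported here. The members and lists were chosen with earlier results of these data known. Python 3.11.15, pandas 2.3.3, numpy 2.4.6, scipy 1.17.1 and matplotlib 3.10.9 were used.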

Additional observations from a re-analysis of the deposited data

Results flagged for a closer look

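The ratio between genotypes lay on opposite sides of 1 without and with PJ34 for 4 members. These were *Cd3e* at 0.889 and 1.46, *Cd4* at 1.38 and 0.929, *Lck* at 0.737 and 1.25, and *Lat* at 0.842 and 1.29. The ratio of untreated to PJ34-treated lay on opposite sides of 1 in *Parp14*+/+ and *Parp14*-/- cells for 7 members. These were *Cd3d* at 0.682 and 1.27, *Cd3e* at 0.842 and 1.38, *Cd3g* at 0.733 and 1.22, *Cd28* at 0.875 and 1.25, *Lck* at 0.933 and 1.58, *Zap70* at 1.2 and 0.909, and *Lat* at 0.727 and 1.12. The difference was not tested, since each condition had 1 library, and the 95% counting interval of every one of these ratios included 1. *Cd3d* and *Cd3g* share a region and are not separate observations. The 0.737 of *Lck* came from its *Hdac1* region, since the region on *Lck* was at 10 in both untreated genotypes. Regions of *Cd4*, *Zap70* and *Lat* are also assigned to neighbouring genes. Over all 8551 genes the medians of untreated to PJ34-treated, 0.958 in *Parp14*+/+ and 1.08 in *Parp14*-/- cells, also lay on opposite sides of 1. In these comparisons 38.4% and 57.4% of all genes were above 1, and between genotypes 49.0% without and 63.9% with PJ34. The share of all genes whose 2 ratios lie on opposite sides was not counted.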

How the results depend on the processing

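The libraries carry no replicate numbers that could pair them, and no fit over both genotype pairs was run. In the order of the 4 comparisons above, the number of members called was 1, 3, 1 and 3. With thresholds of 1.2 and 0.83 it was 4, 7, 4 and 6, against 44.3%, 47.9%, 39.7% and 35.8% of all genes. Pathway genes called at these thresholds numbered 26, 34, 28 and 36. With thresholds of 2 and 0.5 the number of members was 0 in each, *Cd3d* at exactly 2.00 included among the uncalled. Of all genes 1.49% to 3.38% were called at these limits. When a call needed the 95% interval to exclude 1 the number of members was 1, 0, 0 and 1. The shares of all genes were then 3.1%, 3.48%, 1.61% and 1.66%. With the highest summit on the gene 2 members were called between the untreated genotypes, *Ctla4* and *Icos*, against 16.1% of all genes. In *Parp14*-/- cells the number of members was 0 by this measure, against 13.1% of all genes. With covered length it was 5 between the untreated genotypes and 4 in *Parp14*+/+ cells, against 51.1% and 47.5% of all genes. By covered length 3 called ratios reversed. These were *Cd3e* at 0.937 between the PJ34-treated genotypes, *Cd3d* at 2.16 in *Parp14*+/+ cells and *Icos* at 0.978 in *Parp14*-/- cells. With a minimum summed height of 20 the number of members was 1 in *Parp14*-/- cells, *Icos*, against 8.03% of all genes. Scaling the libraries or dropping the need for an interval kept each count within 1.5 times. Scaling called *Zap70* as lower and not *Cd28* and *Cd3e* between the PJ34-treated genotypes, *Ctla4* in place of *Cd3d* in *Parp14*+/+ cells, and no longer *Icos* in *Parp14*-/- cells. The cause of these changes was not tested. For the members other than *Ctla4* and *Icos* the counting interval included 1 at every ratio, up to 2.00. Differences of the size called could therefore not be told from counting error in these peak heights, and totals over the genes were not counted.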
